A study of Homo sapiens with 24 samples.

Results

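HepaRG cells electroporated with a negative control siRNA were compared with HepaRG cells that were not transfected, both kept without Wnt3a, over 24647 genes on one-colour expression arrays. The members were chosen by their titles: 3 arrays titled as transfected with control siRNA and untreated, called siCTRL here, and 3 arrays titled as untransfected and untreated, called NT. These are 6 of the 24 arrays of the series, which has 8 groups of 3.

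The series asked how Wnt3a changes HepaRG cells, a human hepatocellular carcinoma line of bipotent liver progenitors, and which of its effects need beta-catenin. Its other groups received 200 ng/ml mouse Wnt3a, an siRNA to beta-catenin (siCTNNB1), 300 ng/ml of the Wnt-binding domain FZD8_CRD, or pairs of these, and independent cultures were run in triplicate. The siCTRL cells were seeded thinly, detached after 3 days, and given 80 pmol of the siRNA by an electric pulse while in suspension; Wnt3a or FZD8_CRD, where used, followed for 72 hours in serum-free medium with albumin. The methods also describe a second detaching without transfection, in cultures given conditioned medium, and do not say whether the NT cells were handled that way. The siRNA, the pulse, and any detaching and replating of siCTRL cells alone therefore cannot be told apart in this comparison. Each replicate number is 1 slide of 8 arrays, with NT always at row 1 and column 1 and siCTRL always at row 1 and column 2, so the place on the slide and the group cannot be told apart either.

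HepaRG cells divide and look undifferentiated when sparse, and after reaching confluence they leave the cell cycle and turn on hepatocyte or biliary genes. Hepatocytes secrete albumin, clotting factors, complement and carrier proteins, and hold the enzymes of sugar, amino acid and drug metabolism; the transcription factors HNF4A, FOXA1 and ONECUT1 drive many of these genes. Double-stranded RNA inside a cell can be read by TLR3, IFIH1, RIGI and EIF2AK2, which switch on interferon-stimulated genes, while a short interfering RNA is loaded by TARBP2 and DICER1 into Argonaute proteins such as AGO2.

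Levels are log2 intensities relative to the 75th percentile of the same array, so 0 means as bright as the spot at that percentile; values were raised to a floor of -6.13. The 75th percentile lay between 737 and 786 intensity units on the NT arrays and between 683 and 773 on the siCTRL arrays, and 60.1% to 62.7% of spots on the 6 arrays were well above background. The NT arrays were more unlike each other than the siCTRL arrays were. The median SD of a gene over 3 arrays was 0.18 in NT and 0.12 in siCTRL. NT replicates 1 and 3 stood farthest apart, with 1484 genes differing by more than 1 log2 unit between them, against 773 between NT replicates 1 and 2 and 479 to 740 between pairs of siCTRL arrays. The NT arrays differed most in hepatocyte genes, with replicate 1 the highest and replicate 3 the lowest, and NT replicate 1 stood farthest from siCTRL. Calls of named genes that ended without NT replicate 1, and list medians that moved by over 1.5 times, are therefore given with and without it.

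In limma, 3022 genes were higher in siCTRL (12.3% of those tested) and 2479 were lower (10.1%) at an adjusted p under 0.05, and the median change over all genes was -0.03. Among called genes with a symbol, 2664 of 2668 higher genes and 1860 of 1876 lower genes moved the same way on all 3 slides. The calls used the same arrays, so this agreement largely follows from them and is no separate support. Changes past 2-fold were mostly falls: 688 called genes were at least 2-fold lower and 339 at least 2-fold higher. Without NT replicate 1, 2003 genes were higher (8.13%) and 1366 lower (5.54%). With replicate 1 left out of all 8 groups, 148 genes were higher and 85 lower, and 71 of the 87 called genes that are named in the text were no longer called; with replicate 2 left out 1373 were higher and 828 lower. With the slide as a block, 4090 genes were higher and 3823 lower, and with the block on only the 6 arrays compared 2820 were higher and 2700 lower. Scaling by 7 spike-in probes in place of the 75th percentile moved the median change of all genes to -0.32. The share of called genes that were higher went from 54.9% to 7.82%. By construction this scaling moves the genes down together, so the small list medians above 0 given below depend on the scaling chosen. Single calls depend on it too: of the 87 called genes named in the text, 33 lost the call under it. Among them were CDK1 (a change of 0.81, adjusted p = 0.0861) and ANXA1 (0.54, adjusted p = 0.237).

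Of 603 tested members of 29 gene lists, 285 were called. The lists of DNA replication and mitosis genes had the highest medians, and the hepatocyte and acute-phase lists the lowest. Between them lay 25 lists with medians from -0.76 to 0.46, most with members called both ways; of all genes, 12.3% were called higher and 10.1% lower.

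**Figure D1:**
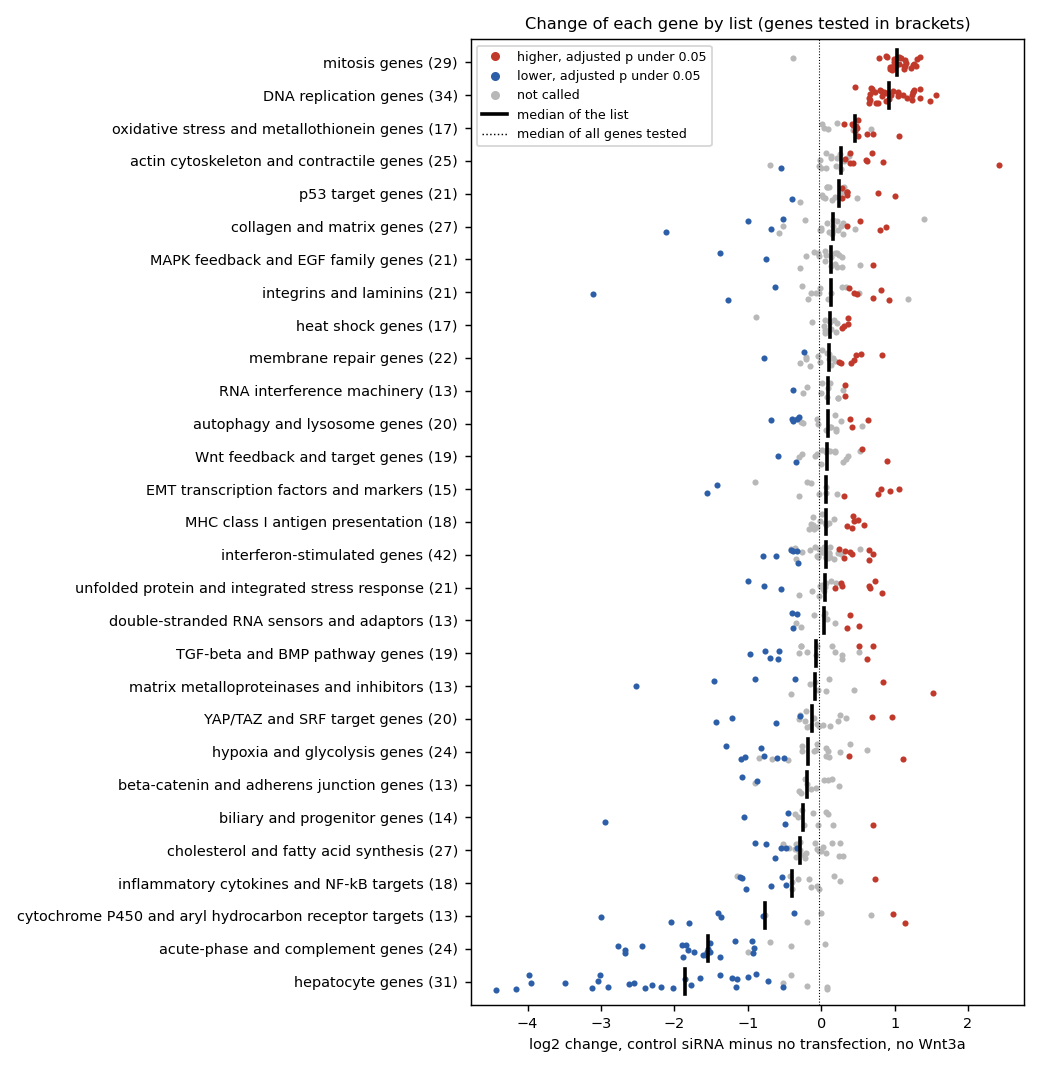
Change of every tested gene in 29 lists, control siRNA minus no transfection (log2, horizontal axis), with each list's median as a bar and the median of all genes, -0.03, as a dotted line. All 34 DNA replication genes and 28 of 29 mitosis genes lie at the right in red, and 26 of 31 hepatocyte genes lie at the left in blue.

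Hepatocyte genes fell the farthest. Of 31 tested, 26 were called lower and 0 higher, with a median change of -1.85 beside -0.03 for all genes. FABP1, which binds fatty acids in hepatocytes, stood at 3.25, 1.07 and -0.33 in NT replicates 1, 2 and 3 and at -2.58, -2.50 and -2.80 in siCTRL. All 3 NT arrays lay above all 3 siCTRL arrays, which hardly differed among themselves. FABP1 fell by 3.96 on the log2 scale, or 15.5-fold (SE 0.75, limma adjusted p = 9.47e-04), and without NT replicate 1 it fell by 3.00 (adjusted p = 0.00908).

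TF and ALB had the NT arrays in the same order as FABP1. TF, the iron carrier transferrin, stood at 6.12, 4.77 and 3.64 in NT and at 1.79, 1.21 and 2.51 in siCTRL. The groups did not overlap, and NT replicate 1 was the highest array. TF fell by 3.01 (adjusted p = 0.00411). ALB, the albumin gene, had levels of 9.76, 9.45 and 9.01 in NT and 7.84, 7.66 and 7.79 in siCTRL. It stayed far above background on every array while falling by 1.65, or 3.13-fold (adjusted p = 8.94e-04).

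Plasma proteins outside the lists were among the 15 largest falls. AFM, the albumin relative afamin, stood at 2.28, 0.23 and -1.33 in NT and at -3.63, -4.11 and -4.08 in siCTRL, and fell by 4.33 (adjusted p = 2.96e-04). On the deposited values its change was -4.30 and was not called (adjusted p = 0.0817). KNG1, the precursor of bradykinin, stood at 3.29, 1.25 and -0.48 in NT and at -2.92, -3.23 and -2.72 in siCTRL, and fell by 4.31 (adjusted p = 0.00112). CFHR2, a complement factor H relative, stood at 0.65, -1.60 and -3.18 in NT and at -5.43, -5.63 and -6.13 in siCTRL; it was well above background on 2 of the 3 siCTRL arrays, so its fall over the 3 NT arrays is at least 20.5-fold (adjusted p = 2.30e-04). For these genes too the lowest NT array lay above the highest siCTRL array, which largely follows from choosing the largest called falls. Without NT replicate 1 the changes were -3.38 for AFM and -3.34 for KNG1. For CFHR2 the fitted change was then -3.34, which is not an exact size because siCTRL replicate 3 lay at the floor.

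The median of the hepatocyte list on each slide, siCTRL minus NT, was -2.75 on slide 1, -1.83 on slide 2 and -0.89 on slide 3. The siCTRL arrays were nearly level with each other, so these differences followed the level of the NT array on the slide. Without NT replicate 1, 15 of the 31 genes were called lower, with a median of -1.40.

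Transcription factors of the hepatocyte program differed in how far they moved. ONECUT1, also known as HNF6, a factor of hepatocyte and bile duct development, stood at 2.14, 1.17 and 0.50 in NT and at -1.65, -1.77 and -1.61 in siCTRL. It fell by 2.94 (adjusted p = 1.86e-04), and every siCTRL array lay below every NT array. NR1H4, the bile acid receptor FXR, stood at 2.26, 1.68 and 0.94 in NT and at -0.62, -0.64 and -0.76 in siCTRL, and fell by 2.30 (adjusted p = 0.00179). HNF4A fell by 1.00 (adjusted p = 0.0476) and FOXA1 fell by 0.73 (adjusted p = 0.049), and both calls ended without NT replicate 1 (changes of -0.71 and -0.68, adjusted p = 0.248 and 0.15) and in 14 and 16 of 26 alternatives in all. CEBPA, another hepatocyte factor, had a change of -0.53 and was not called (adjusted p = 0.06, or 0.0359 with the slide as a block on all arrays and 0.0514 on the 6 compared).

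Drug metabolism genes moved both ways. Among 13 tested targets of the aryl hydrocarbon receptor and other cytochrome P450 genes, 7 fell and 2 rose, with a median of -0.76 that was -0.27 without NT replicate 1. CYP2B6, an enzyme turned on by phenobarbital, stood at 0.30, -0.96 and -1.65 in NT and at -2.66, -2.94 and -2.83 in siCTRL, and fell by 2.04 (adjusted p = 5.94e-04). The rises were in ALDH3A1, an aldehyde dehydrogenase, and CYP1B1, a P450 found mainly outside the liver. ALDH3A1 stood at 3.85, 4.27 and 4.21 in NT and at 5.30, 5.12 and 5.31 in siCTRL, and rose by 1.13 (adjusted p = 2.71e-06). CYP1B1 rose by 0.98 (adjusted p = 0.00144). CYP1A1, the best known target of the receptor, had a change of -0.76 with overlapping groups and was not called (adjusted p = 0.205).

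Acute-phase and complement genes, which the liver secretes in inflammation, fell nearly as widely: 20 of 24 were lower and 0 higher, with a median of -1.55. Without NT replicate 1 the count called lower was 18. A2M, a broad protease inhibitor of plasma, stood at 5.82, 5.05 and 3.93 in NT and at 2.25, 2.42 and 2.09 in siCTRL, and fell by 2.68 (adjusted p = 2.63e-04). C4BPA, which restrains complement, stood at 1.47, 0.26 and -0.92 in NT and at -2.38, -2.48 and -2.63 in siCTRL, and fell by 2.77 (adjusted p = 6.71e-04). SAA2, a serum amyloid, stood at 7.0, 6.12 and 5.11 in NT and at 3.57, 3.77 and 3.55 in siCTRL, and fell by 2.45 (adjusted p = 0.00112). In all 3 genes the siCTRL arrays were close together and below every NT array. FGB, a fibrinogen chain, fell by 1.90 (adjusted p = 0.00261). C3, HAMP, LBP and LCN2 were the 4 members not called; C3, the central complement protein, had a change of -0.41 and HAMP, the iron hormone hepcidin, of 0.05.

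Promoters of 2 hepatocyte genes are shown because these genes fell together and hold letters that a liver factor binds. They are 300 bases each, most of them before the start site, from RefSeq on GRCh38.p14, written 5′ to 3′ along the gene, with the match in capitals. CYP2C8, a P450 that oxidises paclitaxel, stood at 1.57, -0.65 and -2.23 in NT and at -4.46, -4.52 and -4.30 in siCTRL, and fell by 3.99 (adjusted p = 5.46e-04). AHSG, the plasma protein fetuin-A, fell by 3.49 (adjusted p = 0.00187, or 0.055 with the slide as a block on the 6 arrays compared). The siCTRL arrays again lay together, below every NT array, and without NT replicate 1 CYP2C8 fell by 2.99 and AHSG by 2.43. Their capitals are the HNF4 letters CAAAGTCCA or their reverse complement; CYP2C8 is at chr10:95069448-95069747 on the minus strand and AHSG at chr3:186612810-186613109 on the plus strand.
CYP2C8: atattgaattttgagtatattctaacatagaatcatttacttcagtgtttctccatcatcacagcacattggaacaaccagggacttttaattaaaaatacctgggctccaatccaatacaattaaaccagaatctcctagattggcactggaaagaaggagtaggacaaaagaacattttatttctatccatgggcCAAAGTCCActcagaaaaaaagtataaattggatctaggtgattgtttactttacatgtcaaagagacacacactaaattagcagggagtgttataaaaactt
AHSG: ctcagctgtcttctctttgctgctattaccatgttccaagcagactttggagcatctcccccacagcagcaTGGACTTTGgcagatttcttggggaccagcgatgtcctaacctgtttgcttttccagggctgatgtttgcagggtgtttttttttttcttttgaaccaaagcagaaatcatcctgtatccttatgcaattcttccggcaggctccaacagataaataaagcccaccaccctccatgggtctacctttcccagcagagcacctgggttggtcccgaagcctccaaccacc
Searched on both strands, the HNF4 letters were in 0.359% of all 27305 promoters, in 2 of 20 hepatocyte promoters (10%) and in 0 of 13 acute-phase promoters. A match describes letters and shows no binding.

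Markers that separate liver cell types were read as whole lists. All 6 hepatocyte markers fell (3 without NT replicate 1), and their summed signal, in units of the 75th percentile, was 1410, 1072 and 764 in NT and 405, 372 and 385 in siCTRL, most of it ALB. Of 6 biliary or progenitor markers, 5 were tested and 0 were called, with sums of 472, 471 and 363 in NT and 461, 457 and 400.5 in siCTRL; KRT19 was the brightest and EPCAM was not above background on any of the 6 arrays. Of 6 stellate or fibroblast markers 1 was lower (0 without NT replicate 1) and 0 were higher, with DES the brightest. Their sums were 2.56, 2.08 and 2.01 in NT and 2.22, 2.03 and 1.88 in siCTRL. Endothelial markers (5 tested, KDR the brightest, TEK and LYVE1 not above background) and leukocyte markers (5 tested, CD68 the brightest) had 0 called. With the slide as a block KRT18, ITGAM and PTPRC, named after their values were seen, were also lower and DES was higher; with the block on only the 6 arrays compared, ITGAM and DES were called. Hepatocyte markers were thus the only ones of the 5 lists with most members called, and the part of a changed cell mixture in the other results was not tested. In bulk cultures, fewer hepatocyte-like cells and less hepatocyte RNA per cell cannot be told apart.

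A longer list of progenitor and biliary genes, which shares some of those markers, moved in both directions. Of 14 tested, 4 fell (28.6%, beside 10.1% of all genes) and 1 rose (7.14%, beside 12.3%). The median was -0.25, and without NT replicate 1 it was -0.13, with 3 lower. SPP1, the secreted protein osteopontin, fell by 1.06 (adjusted p = 0.00107). NCAM1, an adhesion molecule of liver progenitors, stood at -0.34, -0.09 and 0.26 in NT and at 0.63, 0.51 and 0.80 in siCTRL, and rose by 0.70 (adjusted p = 0.00149). KRT19, a bile duct keratin, stood at 8.0, 8.07 and 7.72 in NT and at 8.15, 8.10 and 8.01 in siCTRL, with overlapping groups and no call (adjusted p = 0.318).

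**Figure D2:**
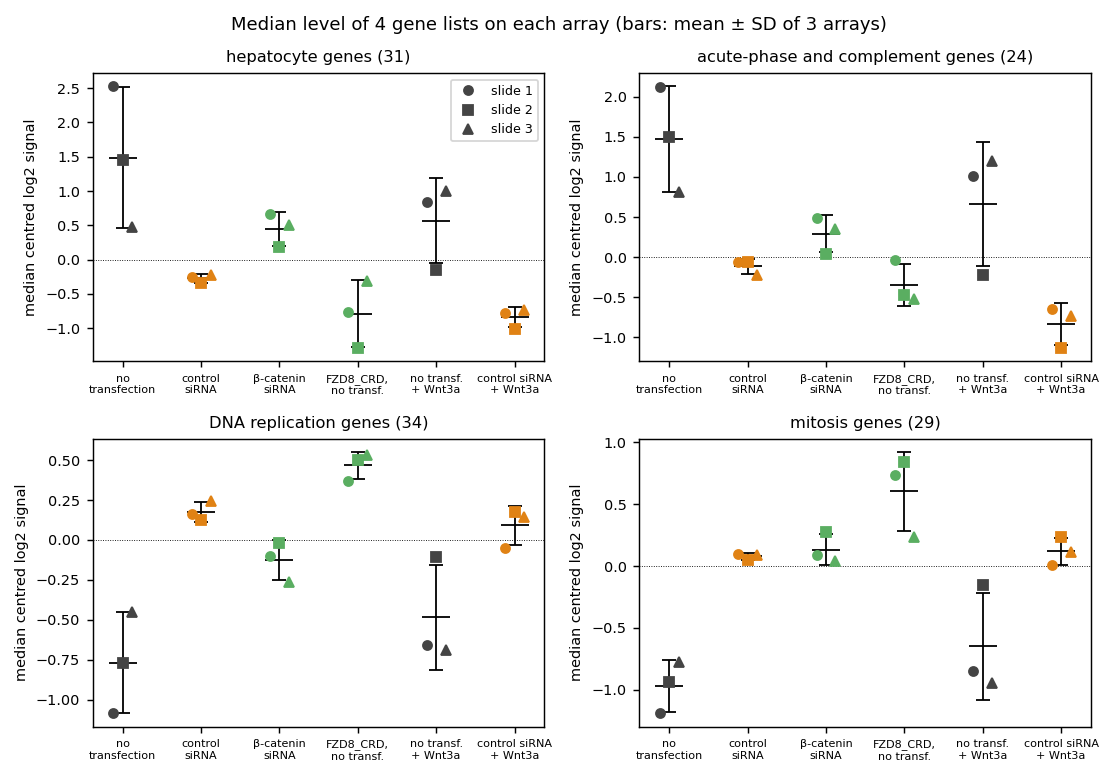
Median level of 4 gene lists on each array, after centring every gene on its mean (log2, vertical axis), for 6 groups; bars are the mean and SD of 3 arrays. The hepatocyte median was 2.53, 1.45 and 0.48 in NT and -0.25, -0.35 and -0.23 in siCTRL, and the DNA replication median was -1.09, -0.77 and -0.45 in NT and 0.16, 0.12 and 0.24 in siCTRL.

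DNA replication genes rose without exception. All 34 tested were called higher, with a median of 0.93 and a range from 0.46 to 1.57, and 33 were called without NT replicate 1. MCM10, which helps to open the replication fork, stood at -3.27, -2.63 and -2.23 in NT and at -1.10, -1.25 and -1.07 in siCTRL. E2F1, the factor that switches on S-phase genes, stood at -1.16, -0.52 and -0.07 in NT and at 0.87, 0.83 and 0.99 in siCTRL. PCNA, the clamp that holds DNA polymerase on its template, stood at 3.83, 4.15 and 4.46 in NT and at 4.98, 4.93 and 5.16 in siCTRL. The order of the NT arrays was the reverse of that in hepatocyte genes, with replicate 1 the lowest and replicate 3 the highest, and the siCTRL arrays lay above all of them. MCM10 rose by 1.57 (adjusted p = 4.04e-04), E2F1 by 1.48 (adjusted p = 2.96e-04) and PCNA by 0.88 (adjusted p = 1.36e-04). CCNE1, the cyclin that starts S phase, had the smallest rise, 0.46 (adjusted p = 0.00979), and was the 1 gene not called without NT replicate 1 (a change of 0.35, adjusted p = 0.0794). On the slides the median rise of the list was 1.25, 0.90 and 0.68.

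Mitosis genes rose with them: 28 of 29 were higher and 0 lower, with a median of 1.04, and 27 were higher without NT replicate 1. BUB1B, a kinase-like protein of the spindle checkpoint, stood at 0.89, 1.03 and 1.38 in NT and at 2.43, 2.39 and 2.50 in siCTRL. PLK1, a kinase that drives entry into mitosis, stood at -0.24, -0.01 and 0.12 in NT and at 1.31, 1.29 and 1.18 in siCTRL. Both genes were more than 1 log2 unit higher on every siCTRL array than on the highest NT array. BUB1B rose by 1.34 (adjusted p = 1.43e-04) and PLK1 by 1.30 (adjusted p = 1.71e-04). CDK1, the kinase partner of the mitotic cyclins, rose by 1.09 (adjusted p = 1.92e-04). CCNB2, a B-type cyclin, was the exception, with a change of -0.38 on a dim probe (adjusted p = 0.0985, or 0.0454 with the slide as a block on all arrays and 0.112 on the 6 compared). Of 57 clustered histone genes, a list chosen after their values were seen and so given as a description, 41 were higher and 0 lower, with a median of 0.72; these genes make the histones packed onto new DNA. H2AC11, with the largest change among them, stood at -0.79, -0.66 and 0.18 in NT and at 1.21, 0.95 and 1.65 in siCTRL.

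The promoters of 2 replication genes and 2 mitosis genes are shown because these lists moved together. GINS2, a subunit of the replication helicase, rose by 1.24 (adjusted p = 2.73e-04). E2F1, at chr20:33686336-33686635 on the minus strand, and GINS2, at chr16:85688905-85689204 on the minus strand, hold the E2F letters TTTCCCGC or TTTGGCGC, or a reverse complement, in capitals. BUB1B, at chr15:40160819-40161118 on the plus strand, and PLK1, at chr16:23678639-23678938 on the plus strand, hold TTTGAA, the letters of the cell cycle homology element, in capitals.
E2F1: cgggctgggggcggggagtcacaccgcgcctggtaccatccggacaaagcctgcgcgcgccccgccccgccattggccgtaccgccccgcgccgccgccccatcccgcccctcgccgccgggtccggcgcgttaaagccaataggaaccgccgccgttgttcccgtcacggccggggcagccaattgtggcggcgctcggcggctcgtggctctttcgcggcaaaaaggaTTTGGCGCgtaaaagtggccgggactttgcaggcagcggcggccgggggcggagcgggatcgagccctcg
GINS2: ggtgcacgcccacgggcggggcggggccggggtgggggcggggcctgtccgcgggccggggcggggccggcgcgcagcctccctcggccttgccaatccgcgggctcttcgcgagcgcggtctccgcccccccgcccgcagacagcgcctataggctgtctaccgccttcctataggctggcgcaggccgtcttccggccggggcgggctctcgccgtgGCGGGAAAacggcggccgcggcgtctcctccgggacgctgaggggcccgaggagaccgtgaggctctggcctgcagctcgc
BUB1B: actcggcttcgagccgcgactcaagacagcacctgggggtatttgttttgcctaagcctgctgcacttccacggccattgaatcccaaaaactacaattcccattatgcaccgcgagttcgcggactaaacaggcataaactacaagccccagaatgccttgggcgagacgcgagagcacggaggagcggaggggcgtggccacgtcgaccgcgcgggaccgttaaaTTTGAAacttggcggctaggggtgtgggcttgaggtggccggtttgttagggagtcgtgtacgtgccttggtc
PLK1: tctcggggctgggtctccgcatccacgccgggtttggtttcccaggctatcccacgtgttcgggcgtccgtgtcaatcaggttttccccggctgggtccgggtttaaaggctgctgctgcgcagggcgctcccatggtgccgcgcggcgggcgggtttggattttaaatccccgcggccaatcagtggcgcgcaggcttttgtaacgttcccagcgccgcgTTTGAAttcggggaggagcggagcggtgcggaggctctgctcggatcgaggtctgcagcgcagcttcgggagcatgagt
On both strands, the E2F letters were in 2.31% of all promoters, 16 of 29 replication promoters (55.2%) and 2 of 24 mitosis promoters (8.33%). TTTGAA was in 15.4% of all promoters, 16 of 24 mitosis promoters (66.7%) and 1 of 29 replication promoters (3.45%). Counted from the start site, the matches began at -20 in E2F1, -31 in GINS2, -23 in BUB1B and -29 in PLK1. As above, a match is only a description of the letters.

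Targets of p53, some of which halt the cell cycle, were more often higher than lower, though most were not called: 7 of 21 were higher (4 without NT replicate 1) and 1 lower, with a median of 0.24. CDKN1A, the cell cycle inhibitor p21, stood at 1.21, 1.13 and 0.99 in NT and at 1.97, 1.92 and 1.76 in siCTRL. GDF15, a hormone secreted by stressed cells, stood at 6.24, 6.35 and 6.32 in NT and at 7.37, 7.20 and 7.34 in siCTRL. The arrays of each group lay close together and the groups were clearly apart. CDKN1A rose by 0.77 (adjusted p = 1.26e-04) and GDF15 by 1.00 (adjusted p = 1.15e-04). MDM2, the p53 inhibitor and a main target, had a change of 0.10 with overlapping groups (adjusted p = 0.451).

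Oxidative stress and metallothionein genes rose in 11 of 17 cases and fell in 0, with a median of 0.46 that was alike on the slides (0.51, 0.44 and 0.42). SLC7A11, the cystine importer, stood at 1.02, 1.18 and 1.84 in NT and at 2.39, 2.22 and 2.64 in siCTRL, and rose by 1.07 (adjusted p = 7.57e-04). PGD, an enzyme of the NADPH-making pentose phosphate pathway, stood at 3.41, 3.46 and 3.68 in NT and at 4.27, 4.16 and 4.25 in siCTRL, and rose by 0.71 (adjusted p = 2.66e-05). MT2A, a metal-binding metallothionein, rose by 0.42 (adjusted p = 2.96e-04). HMOX1, which breaks down heme, was not called, with a change of 0.22 and overlapping groups (adjusted p = 0.47).

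Single genes with the largest rises came from several gene families. CNN1, the smooth muscle protein calponin 1, stood at -1.77, -1.92 and -2.32 in NT and at 0.38, 0.42 and 0.47 in siCTRL. Its siCTRL levels were almost equal and more than 2 log2 units above the NT arrays. CNN1 rose by 2.42, or 5.37-fold (adjusted p = 0.00153), the largest rise of any gene. KRT80, an epithelial keratin, stood at -5.01, -5.01 and -5.32 in NT and at -3.40, -1.66 and -3.33 in siCTRL, and rose by 2.31 (adjusted p = 3.17e-04). IGFL2, a secreted protein of the IGF-like family, stood at -1.42, -0.67 and -0.56 in NT and at 1.49, 2.10 and 0.05 in siCTRL, and rose by 2.10 (adjusted p = 0.00531). The siCTRL arrays spread widely for these 2 genes, with replicate 2 the highest in both.

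Of the 15 largest rises, 6 were in pregnancy-specific glycoproteins. Of 9 symbols of these placental proteins, a group chosen after its values were seen and holding a pseudogene and an antisense transcript, 8 were higher and 0 lower, with a median of 1.88, or 0.68 after normexp background correction. PSG8 stood at -2.84, -2.72 and -2.62 in NT and at -0.64, -0.82 and -0.79 in siCTRL, and rose by 1.98 (adjusted p = 3.67e-04). PSG5 stood at -3.52, -3.22 and -3.21 in NT and at -1.45, -1.36 and -1.51 in siCTRL, and rose by 1.88 (adjusted p = 8.35e-04). PSG3 was well above background on 1 of 3 NT arrays and on all 3 siCTRL arrays, a rise of at least 4.02-fold (adjusted p = 2.03e-04). The glycoproteins are close in sequence, and whether each probe reads a single one was not tested. ALPP, the placental alkaline phosphatase, stood at 2.33, 2.69 and 2.75 in NT and at 4.63, 4.43 and 4.70 in siCTRL, without overlap, and rose by 2.00 (adjusted p = 2.96e-04).

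Receptors and proteases were also among the 15 largest rises. PLXND1, a semaphorin receptor, stood at -4.51, -3.33 and -2.98 in NT and at -1.66, -1.62 and -1.86 in siCTRL, and rose by 1.89 (adjusted p = 4.17e-04). TLR6, a receptor for bacterial lipopeptides, stood at -4.59, -4.81 and -4.71 in NT and at -1.41, -3.62 and -3.51 in siCTRL, with siCTRL replicate 1 far above the rest, and rose by 1.85 (adjusted p = 0.00255), or by 1.14 without that array (adjusted p = 0.0097). CTSZ, a lysosomal cathepsin, stood at 1.63, 1.48 and 1.23 in NT and at 3.28, 2.69 and 3.75 in siCTRL, and rose by 1.79 (adjusted p = 0.00126). No NT array reached the lowest siCTRL array in any of them, which largely follows from choosing the largest called rises.

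**Figure D3:**
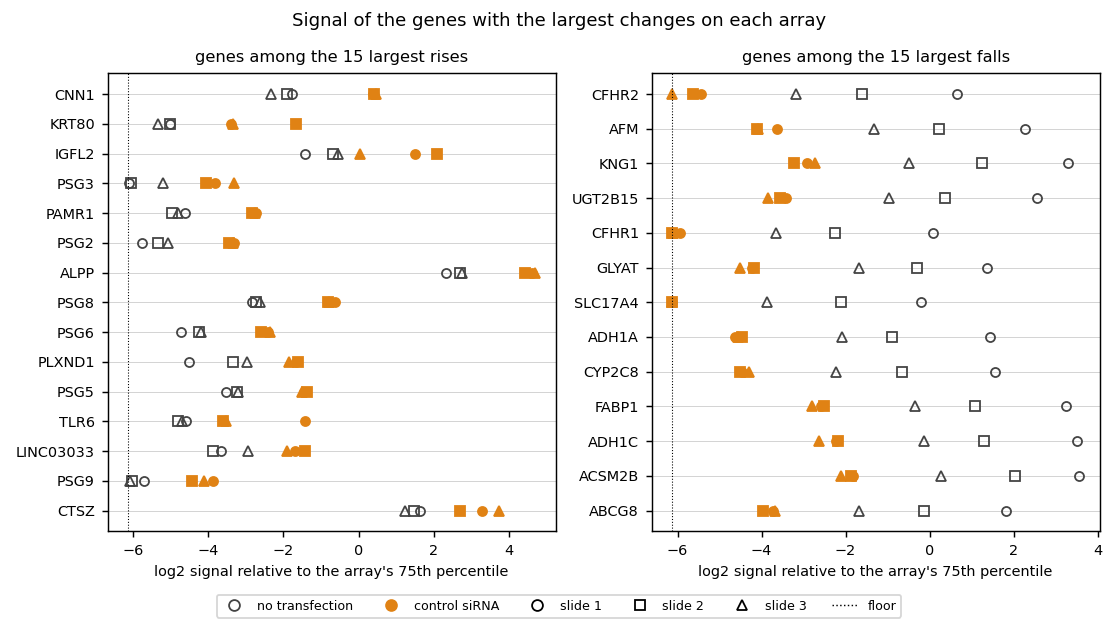
Level of genes among the 15 largest rises (left) and the 15 largest falls (right) on each of the 6 arrays, in log2 units relative to the array's 75th percentile (horizontal axis); open symbols are no transfection, filled ones control siRNA, and the shape gives the slide. In the falls the NT arrays spread over several log2 units (FABP1 from -0.33 to 3.25) while the siCTRL arrays cluster (FABP1 from -2.80 to -2.50).

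Actin and contractile genes rose in 9 of 25 cases (6 without NT replicate 1) and fell in 1 (0 without that array), with a median of 0.26. ACTN1, which bundles actin filaments, stood at 3.63, 3.89 and 3.78 in NT and at 4.43, 4.30 and 4.39 in siCTRL, and rose by 0.61 (adjusted p = 0.00473). FSCN1, the filopodia protein fascin, rose by 0.70 (adjusted p = 0.0396), a call that ended in 14 of 26 alternatives. ACTA2 and TAGLN, the usual myofibroblast markers, were not called, with changes of 0.14 and 0.26. CCN2, a matricellular protein and target of the mechanical sensors YAP and TAZ, went the other way, from 2.39, 1.67 and 0.59 in NT to 0.10, 0.21 and 0.01 in siCTRL, and fell by 1.44 (adjusted p = 7.68e-04). AXL, a receptor tyrosine kinase on the same list, rose by 0.69 (adjusted p = 2.84e-04). Of the 20 tested members of that list, 2 rose (10%, beside 12.3% of all genes) and 4 fell (20%, beside 10.1%). Without NT replicate 1, 3 were called lower and the list median went from -0.13 to -0.04.

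Epithelial and mesenchymal markers moved both ways. Of 15 tested, 5 rose (33.3%, beside 12.3% of all genes) and 2 fell (13.3%, beside 10.1%). The median was 0.07, or -3e-04 without NT replicate 1. Called or not, 8 of the 15 had a change above 0 and 7 below. CLDN1, a tight junction claudin, stood at 2.48, 1.94 and 1.39 in NT and at 0.34, 0.41 and 0.39 in siCTRL, and fell by 1.56 (adjusted p = 0.00174). OCLN, its partner occludin, fell by 1.42 (adjusted p = 5.92e-04). TWIST1, a mesenchymal transcription factor, stood at 1.41, 1.90 and 2.03 in NT and at 2.81, 2.71 and 2.63 in siCTRL, and rose by 0.94 (adjusted p = 0.00225). VIM, the filament vimentin, rose by 0.77 (adjusted p = 0.00605). CLDN1, OCLN, TWIST1 and VIM were named because they were called, so their agreement across slides does not describe the list. CDH1, the epithelial cadherin, had a change of -0.90 and was not called (adjusted p = 0.0976).

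Matrix genes and their receptors moved both ways. Among 27 collagen and matrix genes 4 rose (14.8%, beside 12.3% of all genes; 1 without NT replicate 1) and 4 fell (14.8%, beside 10.1%), with a median of 0.16. COL3A1, a fibrillar collagen, stood at -1.78, -1.73 and -1.99 in NT and at -3.91, -3.46 and -4.47 in siCTRL, and fell by 2.11 (adjusted p = 2.66e-05). VCAN, the proteoglycan versican, rose by 0.88 (adjusted p = 0.00344). Of 21 integrins and laminins 6 rose and 3 fell, with a median of 0.13. ITGB6, an epithelial integrin that activates TGF-beta, stood at -1.89, -2.42 and -3.34 in NT and at -5.68, -5.19 and -6.13 in siCTRL. There 2 of 3 arrays were well above background, a fall of at least 8.66-fold (adjusted p = 1.29e-04). Without NT replicate 1 its fitted change was -2.78, which is not an exact size because siCTRL replicate 3 lay at the floor. ITGB4, the laminin-binding subunit of hemidesmosomes, rose by 0.92 (adjusted p = 0.00309). Among 13 matrix proteases and inhibitors 2 rose and 4 fell (2 without NT replicate 1), with a median of -0.09, or -0.03 without that array. MMP3, the protease stromelysin, was above background on all NT arrays and 0 siCTRL arrays, a fall of at least 5.54-fold (adjusted p = 5.97e-04). Without NT replicate 1 its fitted change was -2.02, which is not an exact size because the siCTRL arrays were not above background. PLAT, the tissue plasminogen activator, was above background on 0 NT arrays and all siCTRL arrays, a rise of at least 2.87-fold (adjusted p = 5.52e-04). Of 22 genes that reseal damaged membranes 7 rose and 2 fell (0 without NT replicate 1), with a median of 0.10. ANXA1, an annexin that binds membranes when calcium enters, stood at 4.79, 4.93 and 4.91 in NT and at 5.69, 5.69 and 5.72 in siCTRL, and rose by 0.83 (adjusted p = 9.08e-05).

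Interferon-stimulated genes moved both ways after the control siRNA: of 42 tested, 8 rose (19%, beside 12.3% of all genes) and 6 fell (14.3%, beside 10.1%), with a median of 0.06. HERC5, which attaches ISG15 to proteins, stood at -1.09, -0.74 and -0.55 in NT and at -0.13, -0.04 and -0.08 in siCTRL, and rose by 0.71 (adjusted p = 0.00305). OAS3, which makes the activator of RNase L on double-stranded RNA, stood at -0.55, -0.45 and -0.42 in NT and at 0.28, 0.08 and 0.17 in siCTRL, and rose by 0.65 (adjusted p = 2.51e-04). ISG20, an exonuclease, went from 1.45, 0.93 and 0.65 in NT to 0.37, 0.40 and 0.40 in siCTRL, and fell by 0.62 (adjusted p = 0.00305, or 0.0624 with the slide as a block on the 6 arrays compared), and by 0.40 without NT replicate 1 (adjusted p = 0.0212). In each of these 3 genes all NT arrays lay on the same side of all siCTRL arrays. IRF7, which amplifies interferon production, fell by 0.79 with overlapping groups (adjusted p = 0.0124, or 0.055 with the slide as a block on the 6 arrays compared). It was not called without NT replicate 1 (a change of -0.49, adjusted p = 0.109). ISG15, a ubiquitin-like protein and one of the most strongly induced genes of the program, stood at 4.64, 4.81 and 4.60 in NT and at 4.75, 4.77 and 4.66 in siCTRL, a change of 0.05 with the groups fully overlapping (adjusted p = 0.71).

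The sensors of double-stranded RNA were as mixed, with 3 of 13 higher (23.1%, beside 12.3% of all genes) and 3 lower (23.1%, beside 10.1%). The median was 0.04, and without NT replicate 1 it was -0.01, with 2 lower. TLR3, the sensor in endosomes, stood at 0.69, 0.59 and 0.74 in NT and at 1.09, 1.01 and 1.08 in siCTRL, and rose by 0.39 (adjusted p = 7.53e-04). IFIH1, the cytoplasmic sensor MDA5, stood at 1.69, 1.96 and 1.81 in NT and at 1.49, 1.44 and 1.39 in siCTRL, and fell by 0.38 (adjusted p = 0.0191), a call that ended in 8 of 26 alternatives. EIF2AK2, the kinase PKR, stood at 2.29, 2.41 and 2.50 in NT and at 2.44, 2.56 and 2.32 in siCTRL, with overlapping groups and a change of 0.04 (adjusted p = 0.871). RIGI, another cytoplasmic sensor, had a change of -0.34 and was not called (adjusted p = 0.108). All these differences were under 1 log2 unit.

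Genes of antigen presentation by MHC class I were called in 1 direction only: 6 of 18 rose (3 without NT replicate 1) and 0 fell, with a median of 0.06, or 0.11 without that array. ERAP2, which trims peptides, stood at 3.85, 4.09 and 4.2 in NT and at 4.63, 4.69 and 4.58 in siCTRL, and rose by 0.58 (adjusted p = 3.22e-04). PSMB8, an immunoproteasome subunit, rose by 0.45 (adjusted p = 0.00342). The 6 called genes were a transactivator, 2 proteasome subunits, both chains of the peptide transporter and a peptidase.

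Inflammatory cytokines and other NF-kB targets were more often lower: 6 of 18 fell and 1 rose, with a median of -0.39, and of -0.85, -0.31 and 0.07 on the slides. CXCL1, a chemokine for neutrophils, stood at 3.64, 3.18 and 2.66 in NT and at 2.09, 2.23 and 2.10 in siCTRL, and fell by 1.02 (adjusted p = 8.75e-04). IL6, the cytokine that drives the acute-phase program in liver, stood at -1.44, -2.27 and -3.56 in NT and at -3.47, -3.27 and -3.84 in siCTRL. NT replicate 3 lay among the siCTRL arrays. IL6 fell by 1.1 (adjusted p = 0.0214, or 0.0857 with the slide as a block on the 6 arrays compared). It was not called without NT replicate 1 (a change of -0.61, adjusted p = 0.178) and in 9 of 26 alternatives in all. IL1B, an inflammatory cytokine, rose by 0.73 (adjusted p = 0.0103, or 0.0692 with the slide as a block on the 6 arrays compared). Without NT replicate 1 the list had a median of -0.07, with 3 members lower and 1 higher.

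**Figure D4:**
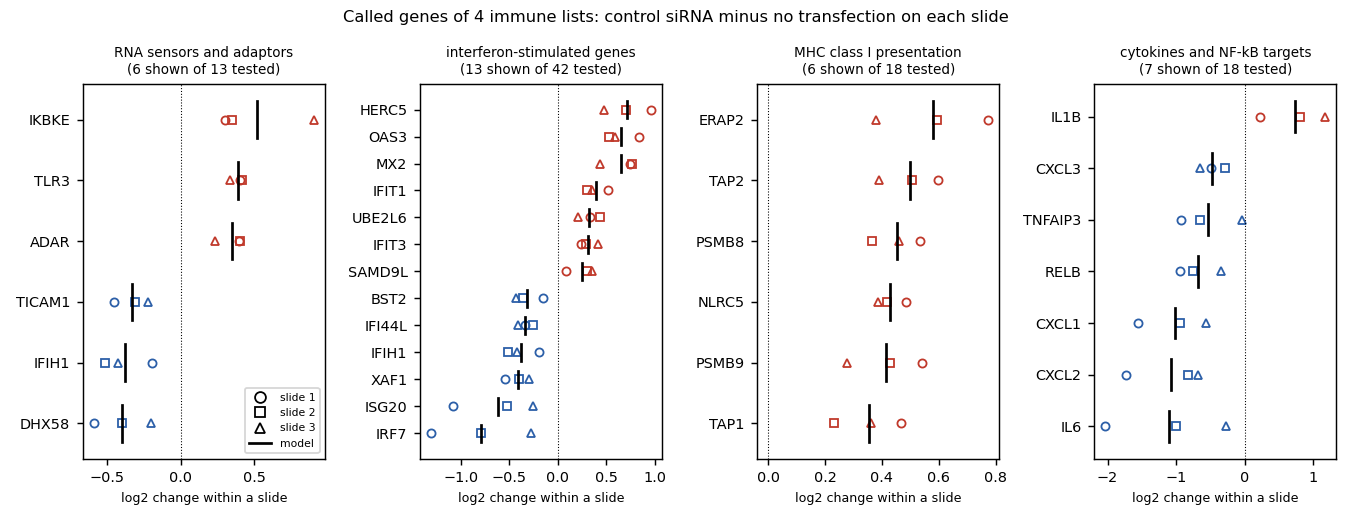
Called genes from 4 immune lists, with the difference of siCTRL minus NT on each of the 3 slides as symbols and the limma change as a black bar (log2, horizontal axis). The bars of interferon-stimulated genes lie on both sides of 0, from IRF7 at -0.79 to HERC5 at 0.71, and the 6 antigen presentation genes lie to the right of 0.

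Of 13 genes of the RNA interference machinery 2 were higher (15.4%, beside 12.3% of all genes) and 1 lower (7.69%, beside 10.1%), with a median of 0.09. Without NT replicate 1, 0 were higher, and with the slide as a block on all arrays 4 were higher and 3 lower. TARBP2, which hands siRNA to Argonaute, stood at 1.69, 1.92 and 1.68 in NT and at 2.17, 2.14 and 1.96 in siCTRL, and rose by 0.33 (adjusted p = 0.0126), a call that ended without NT replicate 1 (a change of 0.29, adjusted p = 0.0657) and in 9 of 26 alternatives in all. AGO2, the slicing Argonaute, stood at 0.33, 0.53 and 0.53 in NT and at 0.55, 0.72 and 0.38 in siCTRL, with overlapping groups (adjusted p = 0.618). CTNNB1, the beta-catenin gene that the other siRNA of the series targets, stood at 3.28, 3.27 and 3.57 in NT and at 3.35, 3.37 and 3.51 in siCTRL, with overlapping groups and a change of 0.04 (adjusted p = 0.918). After siCTNNB1 its mean level was 0.38.

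Wnt target genes showed no common direction, with 2 of 19 higher and 2 lower (10.5% each, beside 12.3% and 10.1% of all genes) and a median of 0.08, or 1 higher and 0 lower without NT replicate 1. LEF1, a partner of beta-catenin on DNA, stood at -0.28, -0.07 and 0.41 in NT and at 0.87, 0.93 and 0.93 in siCTRL, and rose by 0.89 (adjusted p = 4.55e-04). AXIN2, the standard feedback target, fell by 0.34 (adjusted p = 0.0243), which was not called without NT replicate 1 (a change of -0.29, adjusted p = 0.112) and in 11 of 26 alternatives in all. In the adherens junction list 2 of 13 fell (1 without NT replicate 1) and 0 rose, with a median of -0.19, or -0.08 without that array; CDH11, a mesenchymal cadherin, fell by 1.08 (adjusted p = 1.73e-04). Of 19 TGF-beta and BMP genes 3 rose and 5 fell, with a median of -0.08, or -0.0012 without NT replicate 1; SMAD6, which restrains BMP signals, rose by 0.71 (adjusted p = 3.18e-04). Of 21 MAPK feedback and EGF family genes 1 rose and 2 fell (1 without NT replicate 1), with a median of 0.14; ERBB3, a neuregulin receptor, stood at 2.24, 1.98 and 1.45 in NT and at 0.51, 0.63 and 0.41 in siCTRL, and fell by 1.37 (adjusted p = 9.47e-04).

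Metabolic and stress lists made up the rest. Of 24 hypoxia and glycolysis genes 7 fell (3 without NT replicate 1) and 2 rose, with a median of -0.18; VEGFA, the vessel growth factor, stood at 2.74, 2.74 and 2.14 in NT and at 1.28, 1.55 and 0.89 in siCTRL, and fell by 1.30 (adjusted p = 3.93e-04). Of 27 genes for cholesterol and fatty acid synthesis 6 fell and 0 rose, with a median of -0.29; HMGCS1, an early enzyme of the cholesterol path, stood at 2.60, 2.68 and 2.44 in NT and at 1.86, 2.02 and 1.57 in siCTRL, and fell by 0.76 (adjusted p = 0.00932). The unfolded protein and integrated stress list moved both ways, with 7 of 21 higher, 3 lower and a median of 0.05. PHGDH, which starts serine synthesis, rose by 0.82 (adjusted p = 8.71e-04), and ASNS, which makes asparagine, rose by 0.73 (adjusted p = 3.67e-04). XBP1, a factor that expands the endoplasmic reticulum of secretory cells, stood at 6.12, 5.70 and 5.24 in NT and at 4.71, 4.86 and 4.49 in siCTRL, and fell by 1.00 (adjusted p = 4.58e-04). Of 17 heat shock genes 4 rose and 0 fell, with a median of 0.12, and HSPA1A, the inducible HSP70, had a change of 0.05 (adjusted p = 0.762). Of 20 autophagy and lysosome genes 3 rose (15%, beside 12.3% of all genes) and 5 fell (25%, beside 10.1%; 1 without NT replicate 1), with a median of 0.09, or 0.03 without that array.

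The same transfection was also measured with Wnt3a, on 6 arrays that lay on the same 3 slides. The means compared above do not use these arrays, but the variances of that limma fit do. With Wnt3a, 1342 genes were higher (5.44%) and 885 lower (3.59%), and with the slide as a block the 2227 calls became 3759. A fit on only the arrays compared called 1 gene, and leaving out replicate 1 of every group also left 1. Over 24647 genes, which are not independent replicates, the changes without and with Wnt3a had a Pearson r of 0.79, and of 2479 genes called lower without Wnt3a, 2386 were below 0 with it. FABP1 had a change of -4.03 with Wnt3a (adjusted p = 0.00463), and CNN1 one of 1.70 (adjusted p = 0.0353). Hepatocyte genes had 17 of 31 lower and a median of -1.28, and DNA replication genes 25 of 34 higher and a median of 0.56. Acute-phase genes had 20 of 24 lower (median -1.54) and mitosis genes 26 of 29 higher (median 0.80). Some other lists had fewer calls than without Wnt3a. Actin genes had 2 of 25 higher, epithelial and mesenchymal markers 0 of 15 higher and 1 lower, and inflammatory genes 0 of 18 called. The YAP and TAZ list had 2 of 20 higher and 0 lower, and the pregnancy-specific glycoproteins 2 of 9 higher (median 0.96). The difference between the effects had 0 called genes in limma, with 1183 at an unadjusted p under 0.05; with no filter on dim probes 8 were called, with no moderation 8, and under the thresholds of the study 113.

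**Figure D5:**
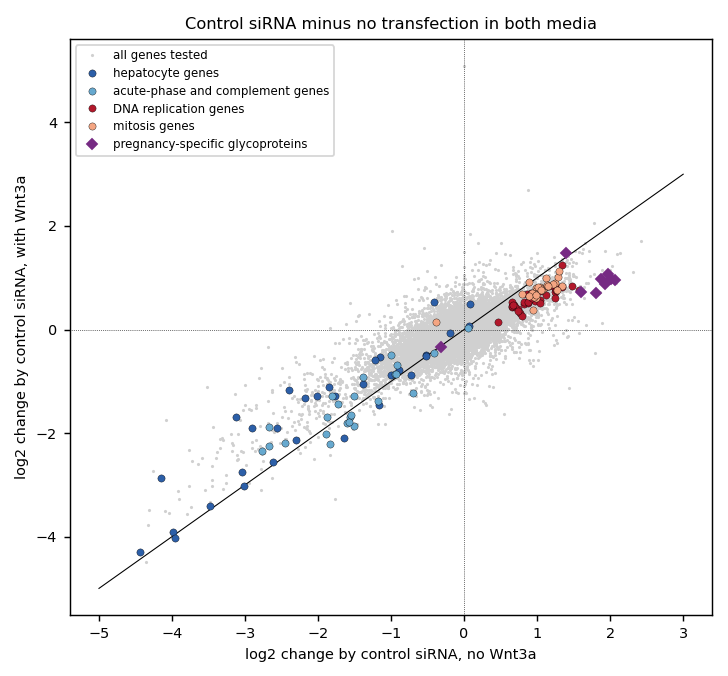
Change of each of 24647 genes by control siRNA without Wnt3a (horizontal axis) and with Wnt3a (vertical axis), both log2 and from different arrays on the same slides. The 2 changes rose together (Pearson r of 0.79 over genes), with 1828 genes called in both the same way and 0 in opposite ways. The line marks equal changes. Medians with Wnt3a were nearer to 0 for hepatocyte genes (-1.28 beside -1.85) and DNA replication genes (0.56 beside 0.93). The acute-phase median was alike (-1.54 beside -1.55).

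A second transfection, siCTNNB1 without Wnt3a, can only be set beside the same 3 NT arrays. Against them 2382 genes were higher (9.66%) and 2503 lower (10.2%), 4885 in all; the calls came to 7415 with the slide as a block, 3082 on only the arrays compared, 846 without replicate 1 and 1007 without replicate 2. Mitosis genes had 27 of 29 higher and a median of 1.12, replication genes 27 of 34 higher and a median of 0.63, and hepatocyte genes 12 of 31 lower and a median of -1.20. The pregnancy-specific glycoproteins had 1 of 9 higher and a median of 0.23. FABP1 had a mean level of -1.20 after siCTNNB1, between 1.33 in NT and -2.63 in siCTRL, and PLK1 one of 1.43 beside 1.26 in siCTRL.

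The group given FZD8_CRD without Wnt3a is labelled as not transfected, yet its levels lay nearer to siCTRL than to NT for the following genes. FABP1 stood at -3.46, -5.11 and -4.98 on its 3 arrays, below every siCTRL array. CNN1 stood at 1.96, 2.11 and 2.10, and MCM10 at -1.02, -0.76 and -0.63, above the siCTRL arrays in both cases. For ONECUT1 the FZD8_CRD mean was -3.20, beside 1.27 in NT and -1.67 in siCTRL, and for PSG8 it was -0.33, beside -2.73 and -0.75. These levels are given side by side without a test, and the changes between siCTRL and NT are not shown to be particular to transfected cells.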

How the data were processed

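The 24 arrays were Agilent one-colour arrays hybridized with Cy3-labelled cRNA, made from total RNA, and the groups and replicate numbers came from the titles. Agilent Feature Extraction, version 10.7.3.1 per the labels and 10.7.1.1 per the file headers, subtracted background and gave 1 processed signal intensity per spot. The deposited value table held log2 values that, by comparison with the scanner files, had been scaled to the 75th percentile and centred per probe. Here the log2 of each processed signal was taken, less the 75th percentile of the array, with outlier spots left out, repeat spots averaged, a floor at the dimmest level still well above background (the median of it over arrays), and a filter that kept a probe if all 3 arrays of at least 1 group read it well above background. Of 50683 probes, 28174 carried a gene symbol, matched by the array's annotation, and each gene was read by its probe with the highest mean signal, giving 24647 genes, 16000 with a symbol.

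R 4.3.3 with limma 3.58.1 fitted 1 mean for each of 8 groups over all 24 arrays, with moderated variances that follow the signal, two-sided tests and Benjamini-Hochberg adjustment over all genes; Python 3.11.15 and matplotlib 3.10.9 drew the plots and searched the promoters. The scripts were tested on simulated data. Same-numbered NT and siCTRL arrays shared a slide, and their deviations from the group means correlated at 0.36, 0.51 and 0.44. Centring 3 arrays on their mean pushes the correlations of the other pairs below 0. A slide effect and a pairing of cultures cannot be told apart here. The model has no block for the replicate number, and a fit with it was 1 of the alternatives.

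Named genes were the 15 largest rises and falls with a symbol that moved the same way on all 3 slides, called members of the gene lists by size of change and role, uncalled members that define a list, CTNNB1 and cell type markers. A few genes, and the matches of 1 other motif searched in the liver promoters, are not given because they are withheld. The members and lists were chosen with earlier results of these data known, and the glycoprotein and histone groups after the values were seen. For genes dim in a group, the least fold change was the lower of that from each array's background limit and that of the fit. Alternatives changed the normalization, the background correction, the filter, the probes, the floor, the model, the thresholds and the arrays left out. The thresholds of the study were a p under 0.01 with a fold above 1.5 or below 0.7, and this p was taken here as unadjusted. Promoters came from RefSeq.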

Additional observations from a re-analysis of the deposited data

How the results depend on the processing

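The 5 counts of genes kept within 1.5 times their values under quantile normalization, normexp background correction, the deposited values, both stricter filters, the mean of probes, kept outlier spots and a lower floor, apart from 8 genes whose control siRNA effect differed with Wnt3a when no filter was used. With no moderation that count was also 8. Under the thresholds of the study, control siRNA gave 1062 higher and 1622 lower genes without Wnt3a, 1350 changed with Wnt3a and 113 with a differing effect, and beta-catenin siRNA gave 2414. An added 2-fold limit gave 339 higher, 688 lower, 390 with Wnt3a and 857 for beta-catenin siRNA, with 33% of the first 2 counts higher, beside 39.6% under the study's thresholds and 54.9% in the fit reported. Spike-in scaling gave 122 higher, 1439 lower, 241 with Wnt3a and 1083 for beta-catenin siRNA; why the 2 scalings differ was not tested. In fits on only the arrays of the groups compared, which have fewer samples, 1547 were lower, 1 changed with Wnt3a and 3082 with beta-catenin siRNA.

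With the replicate number, which is the slide, as a block, 3823 genes were lower, 3759 changed with Wnt3a and 7415 with beta-catenin siRNA; among the 116 genes named, the block also called CCNB2, CEBPA, DES, HAPLN1, ITGAM, KRT18 and PTPRC and changed no other call. With the block on only the 6 arrays compared, CCNB2, CEBPA, KRT18 and PTPRC were not called (adjusted p = 0.112, 0.0514, 0.0505 and 0.123), DES, HAPLN1, ITGAM and LBP were, and AHSG, IL1B, IL6, IRF7 and ISG20 lost the call. The slide as a random block, chosen after seeing the data, gave 3603 with Wnt3a. Leaving out 1 replicate of every group, the higher genes ranged from 148 to 3578, the lower from 85 to 3298, those changed with Wnt3a from 1 to 1254 and those changed by beta-catenin siRNA from 846 to 6416, and the differing effect stayed at 0. Leaving out 1 NT or siCTRL array, they ranged from 2003 to 2852 higher and from 1366 to 2947 lower. A group then holds 2 arrays, assumed to vary like the other groups.

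Of 3001 values of the named genes under all settings, 2698 kept their side of the threshold with no change of sign, 234 lost the call, 42 gained it, and 27, in 13 genes that were called neither in the fit reported nor there, changed sign. Leaving out replicate 1 of every group ended 71 of the 87 calls. The changes of sign from above 0 came with spike-in scaling, which by construction moved the genes down together, in ACTA2 (-0.15), AGO2 (-0.19), CTNNB1 (-0.25), DICER1 (-0.21), EIF2AK2 (-0.24), HAMP (-0.23), HMOX1 (-0.07), HSPA1A (-0.23), ISG15 (-0.24), KRT19 (-0.12), MDM2 (-0.18), SRF (-0.03) and TAGLN (-0.02), and on leaving out replicates in CTNNB1 (from -0.01 to 0.14), EIF2AK2 (from -0.02 to 0.15), HAMP (from -0.04 to 0.21), HMOX1 (from -0.08 to 0.41) and HSPA1A (from -0.04 to 0.1); the cause of the latter was not tested. Of 696 list medians less the median of all genes, also chosen after seeing the data, 10 changed sign, 1 of them by more than the spread between slides: without each siCTRL replicate in turn, the EMT list ranged from -0.0185 (without replicate 2) to 0.1567, and with normexp it was -6e-04.

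With 3 arrays a group, a gene that was not called is not shown to be unchanged, least of all near background. The siRNA, the pulse, any replating of siCTRL cells alone, the group and the place on the slide cannot be told apart. Every fall of a hepatocyte gene is measured against 3 NT arrays that differ from each other. Array signals do not count cells or RNA per cell, and whether a probe reads relatives of its gene was not tested. Protein was not measured.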

Other observations

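GLYAT, UGT2B15 and ABCG8, also among the 15 largest falls, had the NT arrays in the same order as FABP1. GLYAT, which joins glycine to acids in liver mitochondria, stood at 1.37, -0.30 and -1.69 in NT and at -4.24, -4.17 and -4.51 in siCTRL, and fell by 4.10 (limma adjusted p = 1.92e-04). UGT2B15, which adds glucuronic acid to steroids, stood at 2.55, 0.37 and -0.97 in NT and at -3.43, -3.57 and -3.86 in siCTRL, and fell by 4.26 (adjusted p = 2.61e-04). ABCG8, a sterol exporter of the bile canaliculus, stood at 1.83, -0.14 and -1.69 in NT and at -3.74, -3.96 and -3.68 in siCTRL, and fell by 3.79 (adjusted p = 8.73e-04). In all 3 the siCTRL arrays lay within 0.5 log2 units of each other, and NT replicate 1 was the highest array. Without it GLYAT fell by 3.31, UGT2B15 by 3.31 and ABCG8 by 2.88. SLC17A4, a transporter of organic anions, was well above background on all NT arrays and on 0 siCTRL arrays. Its fall over the 3 NT arrays is at least 16.9-fold (adjusted p = 5.26e-04). Without NT replicate 1 its fitted change was -3.14, which is not an exact size because the siCTRL arrays were not well above background.

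HAPLN1, the link protein of the hyaluronan matrix, stood at -5.07, -4.41 and -4.09 in NT and at -3.18, -2.99 and -3.20 in siCTRL. The groups did not overlap, but its change of 1.40 was not called (adjusted p = 0.0597), and was called in 7 of 25 alternatives, among them the slide as a block (adjusted p = 0.0419). PAMR1, a secreted protein with a protease-like domain, stood at -4.61, -4.96 and -4.81 in NT and at -2.72, -2.85 and -2.75 in siCTRL, and rose by 2.02 (adjusted p = 4.92e-04).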
